A study of Mus musculus with 2 samples.

Results

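The cells described here are the T and NK cells that lay inside the population the authors named Macro in a single-cell atlas of the mouse aorta. A Macro cell was taken as a T or NK cell when its summed UMIs of Cd3d, Cd3e, Cd3g, Lck, Nkg7 and Ms4a4b exceeded those of Cd79a, Cd79b and Ms4a1, which B cells express. A UMI (unique molecular identifier) counts 1 captured transcript. The rule gave 89 of the 167 Macro cells, or 53.3%, and 1.63% of all 5451 cells. The mice were wild-type C57/BL6 females, 12 weeks old and fed chow, and their whole aortas were dissociated after the perivascular fat had been removed. There was 1 droplet library for each of 2 aortas, and both libraries form 1 group, so no treatment or genotype is compared. The digestion lasted 1 hour at 37 °C, red cells were lysed, and the labels describe no enrichment of blood cells. The 78 remaining Macro cells and the other 9 populations are the reference.

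T cells recognise antigen through a receptor whose signal passes through the CD3 proteins, encoded by Cd3d, Cd3e and Cd3g, and through the kinase Lck. NK cells lack that receptor and read other cells with activating and inhibitory lectin-like receptors of the Klr families, and both cell types can kill with granules that hold granzymes and the membrane protein Nkg7. In the normal artery wall such lymphocytes are few and lie mainly in the adventitia, while B cells carry the receptor subunits Cd79a and Cd79b and the membrane protein Ms4a1 (CD20).

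Cd3d and Cd3g lie side by side on chromosome 9 and are read in opposite directions from starts 1355 bases apart (RefSeq, GRCm38.p6), and both stood high in these cells in each library. Their promoters are shown with that of Gzma, the granzyme of the cells with NK markers, because these genes carry the division between CD3-bearing cells and cells with NK markers. Each window runs 5′ to 3′ on the gene's own strand from 250 bases before to 50 bases after the start. Capitals mark matches, on either strand, to short motifs of the ETS (AGGAAG), RUNX (TGTGGT), TCF/LEF (CTTTGA) and T-box (TCACAC) factor families.
Cd3g, chr9:44980382-44980681, minus strand: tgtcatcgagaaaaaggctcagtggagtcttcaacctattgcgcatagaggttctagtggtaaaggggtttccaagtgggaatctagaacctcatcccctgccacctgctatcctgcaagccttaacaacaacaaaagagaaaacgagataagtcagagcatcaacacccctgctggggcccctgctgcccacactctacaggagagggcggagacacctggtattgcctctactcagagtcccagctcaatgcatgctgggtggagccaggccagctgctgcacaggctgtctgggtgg
Cd3d, chr9:44981536-44981835, plus strand: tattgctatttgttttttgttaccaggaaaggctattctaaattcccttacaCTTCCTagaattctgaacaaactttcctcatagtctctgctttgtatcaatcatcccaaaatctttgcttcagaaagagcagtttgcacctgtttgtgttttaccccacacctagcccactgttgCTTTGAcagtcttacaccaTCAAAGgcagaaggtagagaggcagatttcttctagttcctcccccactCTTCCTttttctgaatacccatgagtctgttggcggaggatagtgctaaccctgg
Gzma, chr13:113100932-113101231, minus strand: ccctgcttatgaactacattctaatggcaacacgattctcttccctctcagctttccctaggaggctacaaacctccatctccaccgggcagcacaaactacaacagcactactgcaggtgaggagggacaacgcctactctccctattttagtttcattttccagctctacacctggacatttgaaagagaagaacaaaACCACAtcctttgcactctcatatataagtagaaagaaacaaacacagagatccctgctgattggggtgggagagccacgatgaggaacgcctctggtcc
The Cd3d window held 2 ETS matches, 198 and 5 bases before the start, and 2 TCF/LEF matches, 73 and 54 bases before it, which did not overlap. The Gzma window held 1 RUNX match, 50 bases before the start, and none of these letters occurred in the Cd3g window. Among 32851 RefSeq promoter windows of the same length, 35.4% held the ETS letters, 16.8% the RUNX letters, 16.0% the TCF/LEF letters and 14.5% the T-box letters. Of 32 genes with a level in T and NK cells at least 4 times that of every other population in each library, 27 had a promoter in the table. The ETS letters were in 10 of the 27, the RUNX letters in 9, and the TCF/LEF and T-box letters in 4 each. A match describes letters and is not a measured binding site.

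T and NK cells held 1 to 68 UMIs of the 6 T and NK genes, with a median of 10, and 86 of them held at least 2. Just inside the boundary were 3 cells with a difference of 1 UMI and 2 cells with a difference of 2. Just outside were 29 cells without a UMI of any of the 9 genes and 1 cell with a difference of -1, so 30 of the 78 remaining Macro cells lay at the boundary. The remaining cells with more B cell than T and NK UMIs, called B-gene cells here, numbered 49, that 1 cell included, with a median of 10 B cell UMIs and at most 1 UMI of the T and NK genes. Of the T and NK cells, 3 held any UMI of a B cell gene, at most 2. Elsewhere in the atlas, more T and NK than B cell UMIs were seen in 1.81% of VSMC (smooth muscle cells) and 3.39% of Mono 1 (a population rich in macrophage markers) and also in 6.42% of Mono 2 and 4.26% of EC 3 (an endothelial one). At least 2 such UMIs were seen in 0.185% of VSMC, 0 of 443 Mono 1 cells, 0.917% of Mono 2 and 1.06% of EC 3.

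**Figure D1:**
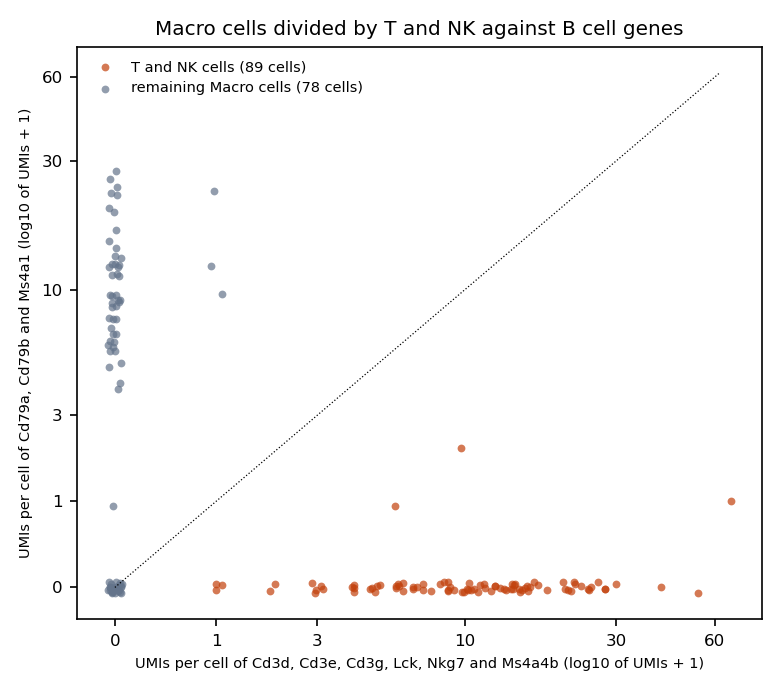
Each point is 1 Macro cell, with a small random shift to separate points: the x axis gives its UMIs of the 6 T and NK genes and the y axis its UMIs of the 3 B cell genes, both on a scale of log10 of UMIs + 1. The 89 T and NK cells lie along the x axis at 1 to 68 UMIs, the 49 B-gene cells along the y axis, and 29 remaining cells at 0 on both.

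The name Macro did not describe these cells. The authors' original name for the cluster carries a question mark. Of the 9 macrophage markers, Adgre1, Mrc1 and Fcgr1 had 0 UMIs in the 89 T and NK cells, and Csf1r had 1 UMI and Cd68 had 2. The summed level of the 9 markers was 566 and 190 CPM (counts per 1000000 UMIs of the pooled cells) in the T and NK cells of libraries 1 and 2. It was 1001 and 343 CPM in the remaining Macro cells and 39334 and 36049 CPM in Mono 1. In library 1, 1 cell rich in neutrophil transcripts held 53 UMIs of the macrophage marker Lyz2, and without it the sum was 176 CPM in the T and NK cells. All 11 measured T and NK markers were present, but 5 of them are genes of the rule, so their presence follows from the choice of cells. The 6 outside the rule were Ccl5, Cd247, Thy1, Cd2, Il2rb and Klrd1. They had 2788 and 3759 summed CPM in T and NK cells, against 324 and 132 CPM in the remaining Macro cells and 12.9 and 15.2 CPM in Mono 1. Among the other populations the sum averaged highest in Mono 2 (166 and 476 CPM) and in the endothelial EC 3 (272 and 324 CPM) and EC 2 (408 and 25.2 CPM). Ccl5 alone gave 1670 and 2555 CPM of the sum in T and NK cells. Of its 655 UMIs, 592 were in 12 of the 89 cells. Constant-region genes of the T cell receptor were not among the genes counted, under the symbols looked for, and were not analysed here. The 5 smooth muscle markers, which lymphocytes should lack, had 1476 and 842 summed CPM in T and NK cells, against 1602 and 2424 CPM in the remaining Macro cells, and 39473 and 36519 CPM in VSMC.

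T and NK cells numbered 45 of 2260 cells in library 1, or 1.99% (95% exact Clopper-Pearson interval 1.46 to 2.66), and 44 of 3191 cells in library 2, or 1.38% (1.00 to 1.85). Over the libraries the share averaged 1.69% ± 0.433 of all cells and 53.5% ± 4.14 of Macro cells (SD, n = 2). These intervals cover counting error only. T and NK cells were small in RNA content, and the median cell held 2946 UMIs and 1193 genes, against 2390 UMIs and 1029 genes in the remaining Macro cells and 5012 UMIs and 1996 genes over all cells. They held 302825 UMIs in all, which limits what can be said of a gene with few transcripts. Scrublet marked 0 of them as doublets, with 2.04% and 1.07% of cells marked in libraries 1 and 2. Of 12 barcodes that occurred in both libraries, none belonged to a T or NK cell.

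Genes of the CD3 complex were read in most of the cells. Cd3d was detected in 68 of 89 cells (76.4%, exact 95% interval 66.2 to 84.8), Cd3g in 61 and Cd3e in 45. VSMC, which should lack these genes, held a UMI of Cd3d in 0.602% of cells at a median depth of 6025 UMIs. At least 1 CD3 gene was seen in 75 cells and all of them in 36. Of the 14 cells without a CD3 UMI, 9 carried NK markers. After each cell was thinned to 1000 UMIs, Cd3d was seen in 47.2% of T and NK cells and Cd3g in 49.4%, so the unthinned shares moved with depth. The rule used these genes, and their shares are a description.

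The 89 cells were not alike, and they were grouped after their values were seen by the lineage genes each held. At least 2 UMIs of the 7 NK markers (Ncr1, Klrb1c, Klre1, Klra4, Klra7, Klra8 and Eomes) were found in 12 cells, at least 2 UMIs of Cd163l1 in 9 cells, and Cd8a or Cd8b1 (the chains of the CD8 coreceptor) in 21 further cells. Another 42 cells had CD3 UMIs and fell in none of these groups, and 4 had no CD3 UMI and fell in none. The last cell, of library 1, held 827 UMIs of the neutrophil gene S100a8 and entered by 1 UMI of the rule genes. The kinds occurred in both libraries: NK markers in 5 cells of library 1 and 7 of library 2, Cd163l1 in 5 and 4, and CD8 genes in 8 and 13. The groups hold too few cells for a test between them.

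**Figure D2:**
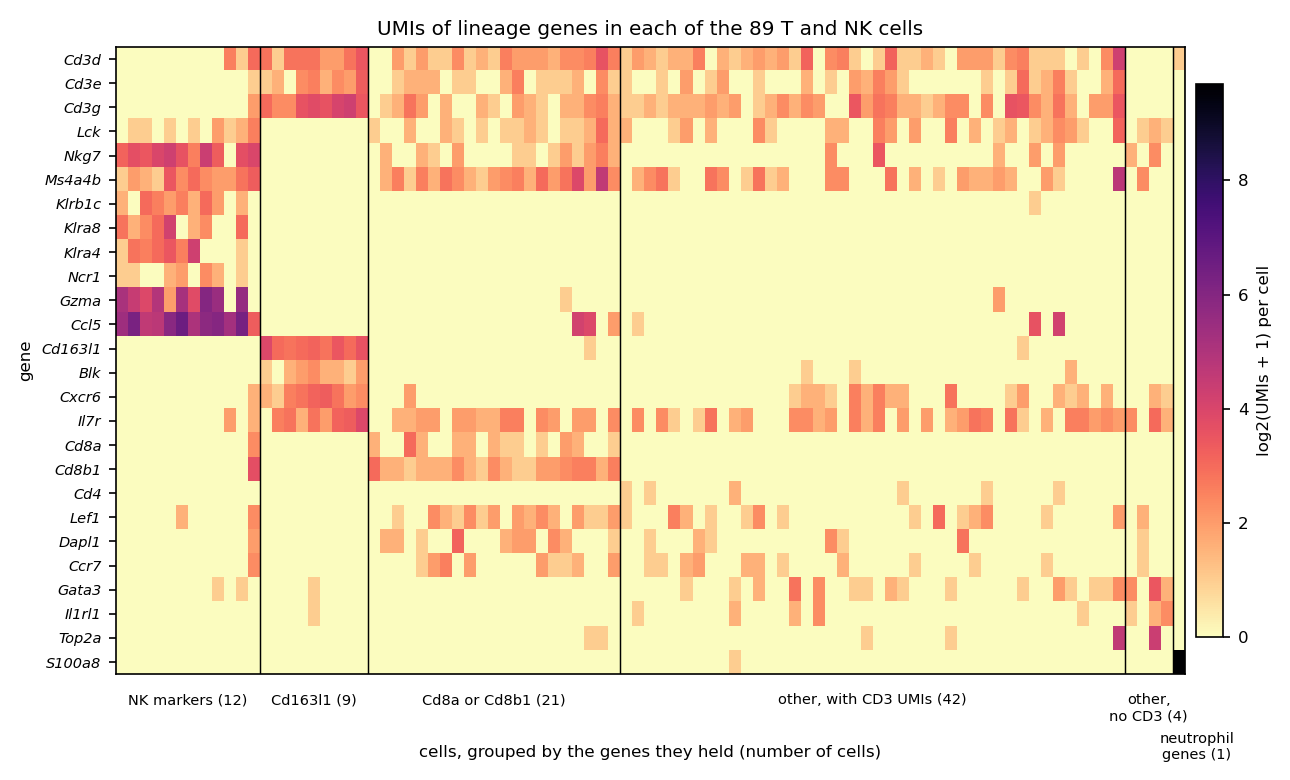
Each column is 1 of the 89 T and NK cells and each row 1 gene, with colour giving log2(UMIs + 1) from 0 (pale) upwards; black lines separate the groups, whose sizes are printed below. Gzma, Ccl5 and the Klr genes are densest in the 12 cells at the left, Cd163l1, Blk and Cxcr6 in the 9 cells beside them, and Cd8b1 in the next 21, while the neutrophil-gene cell stands alone at the right.

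The 12 cells with NK markers held most UMIs of Gzma, Gzmb and Ccl5, none of which was used to group them. Gzma, a granzyme that enters target cells, had 304 of its 308 UMIs in 10 of these cells, with a highest cell of 63. Ccl5, a chemokine that attracts T cells and monocytes, was present in all 12 at 9 to 93 UMIs per cell and a median of 48, and they held 90.4% of the 655 UMIs of the gene. Gzmb was found in 8 of the 12 and in none of the other 77 cells. The inhibitory or activating receptors Klra4, Klra7, Klra8 and Klra9 also had all their UMIs in these cells: 53, 39, 49 and 34. The grouping used Klra4, Klra7, Klra8, Ncr1 and Eomes, so that they gather in these cells follows from it, while Klra9 was not used. Reads of the Klra family are uncertain between members, since its genes are close copies. Ncr1, the receptor NKp46, was seen in 7 of the 12 and in no other T or NK cell. Eomes, a transcription factor of NK cells and CD8 T cells, was seen in 4 of the 12, and Tbx21, which drives the interferon programme, in 4 of all 89. Fcer1g and Tyrobp, adaptors that pair with NK receptors, had 68 and 78 UMIs in the 12 cells. CD3 UMIs were seen in 3 of the 12, all in library 2. Of these 3, 1 held 1 UMI of Cd3d beside 47 UMIs of Gzma. Another held 5 UMIs of Cd3d and 0 of Gzma. The last held 7 UMIs of Cd3d, 3 of Cd3g and 1 of Cd3e, with 4 of Cd8a, 12 of Cd8b1, 4 of Lef1 and 0 of Gzma. Its 9 UMIs of Ccl5 were the fewest among the 12. Like the cell named before it, it held 0 UMIs of Klrb1c, Klra4, Klra8 and Ncr1. Whether each of these 3 is an NK or a T cell was not tested, and all 3 are counted with the 12. Prf1, the pore-forming protein perforin, had 4 UMIs in 3 cells of all 89.

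The 9 Cd163l1 cells had the highest median CD3 count of the groups. Cd163l1 encodes a scavenger receptor of the WC1 family. The gene had 78 UMIs in all T and NK cells, of which 76 were in these 9 as the grouping by this gene sets, against 0 UMIs in the remaining Macro cells. Their CD3 UMIs ran from 7 to 29 per cell with a median of 21, against a median of 5 in the CD8 cells and 4.5 in the 42 other CD3 cells. Every one of the 9 held Cxcr6, a chemokine receptor of tissue-dwelling lymphocytes, 8 held the Src-family kinase Blk, and none held Lck or Ms4a4b, which were detected in 46 and 56 of the 89 cells. Since CD3 genes, Lck and Ms4a4b entered the rule, these counts describe the cells. Genes outside the rule that stood higher in the 9 than in the other members, chosen after their values were seen, included Tmem176a, with 98 of its 196 UMIs there, and Rora, a nuclear receptor of innate-like lymphocytes, with 20 UMIs in 8 cells. The cytokine receptor Il23r was found in 5 of the 9 and in 2 other cells. The receptor chains that would tell gamma delta from alpha beta T cells were not among the genes counted, under the symbols looked for, and were not analysed here.

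The CD8 coreceptor was read in more cells than CD4. Cd8a or Cd8b1 was detected in 22 cells and Cd4 in 6, with 0 cells holding both. With so few Cd4 cells, an overlap of 0 cannot show that the coreceptors exclude each other. Cd8b1 had 72 UMIs in 22 cells (24.7%, exact 95% interval 16.2 to 35.0), against 0.185% of VSMC and 0 of 78 remaining Macro cells. Cd4 had 7 UMIs, its share of 6.74% (2.51 to 14.1) lay above the 0.139% of VSMC, and Mono 1 held it in 3.16% of cells. At this depth few cells could be called CD4 T cells, and cells without a coreceptor UMI cannot be taken to lack the protein. Among the 21 CD8 cells, genes of circulating naive T cells were frequent: Lef1 and Dapl1 were found in 15 and 10 cells, and Ccr7, the homing receptor for lymph nodes, in 9. Nkg7 was found in 12 of them, Ccl5 in 3, Gzma in 1 and Gzmb in 0.

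Lef1 and Cxcr6, a pair chosen after their values were seen, met in 1 cell. Lef1, a transcription factor of naive T cells, was detected in 32 of the 89 cells and Cxcr6 in 29. Ms4a4b, a gene of the rule, was detected in 56 cells, 6 of them with Cxcr6. Gata3, the transcription factor of type 2 lymphocytes and of T cells in general, was detected in 22 cells, 18 of which had CD3 UMIs and 3 of which had Lef1. Il7r, the receptor for the survival cytokine IL-7, was detected in 56 cells (62.9%), against 29.5% of the remaining Macro cells and 0.463% of VSMC. Those remaining cells were 22 of the 29 without a UMI of the rule genes and 1 of the 49 B-gene cells. Foxp3, the factor of regulatory T cells, had 2 UMIs in 2 cells, a share of 2.25% (0.273 to 7.88) against 0.0463% of VSMC. Itgae, which marks epithelial residency, had 3 UMIs in 3 cells.

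Dividing cells were few. Of 125 UMIs of 7 mitotic genes in all T and NK cells, 118 were in 2 cells, 1 in each library. They held 12661 and 13519 UMIs in total, several times the median of the population, and neither was marked as a doublet. The cell of library 1 had 0 CD3 UMIs and that of library 2 had 35.

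Across the atlas the rule genes Cd3g, Cd3d and Nkg7 had low levels outside these cells, which the rule chose by those genes, and Ccl5 and Gzma also appeared in a few cells of other populations. Cd3g averaged 868 ± 47.0 CPM in T and NK cells (SD, n = 2), while its highest level elsewhere was 0 and 6.16 CPM in the endothelial population EC 3 in libraries 1 and 2. Cd3d had 716 and 795 CPM in T and NK cells and at most 7.76 and 12.3 CPM elsewhere, also in EC 3. Nkg7 had 678 and 575 CPM in T and NK cells, against 35.5 and 0 CPM in EC 2. Ccl5 had 1670 and 2555 CPM in T and NK cells, against 349 and 0 CPM in EC 2 and 0 and 296 CPM in Mono 2, with 59 UMIs in 1 cell of EC 2 and 147 UMIs in 2 cells of Mono 2. Gzma had 753 and 1227 CPM in T and NK cells, against 154 and 1.68 CPM in EC 2. The 27 Gzma UMIs of EC 2 were in 2 cells. Klrd1 had 70 UMIs in 23 T and NK cells and 54 UMIs in 24 cells of Mono 2. Il7r was shared with the 29 remaining Macro cells without a UMI of the rule genes. Over both libraries it had 873 CPM there, against 710 CPM in T and NK cells, and 1 UMI in the B-gene cells. Csf1r, the growth factor receptor of macrophages, had 0 and 5.93 CPM in T and NK cells against 1297 and 1223 CPM in Mono 1.

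**Figure D3:**
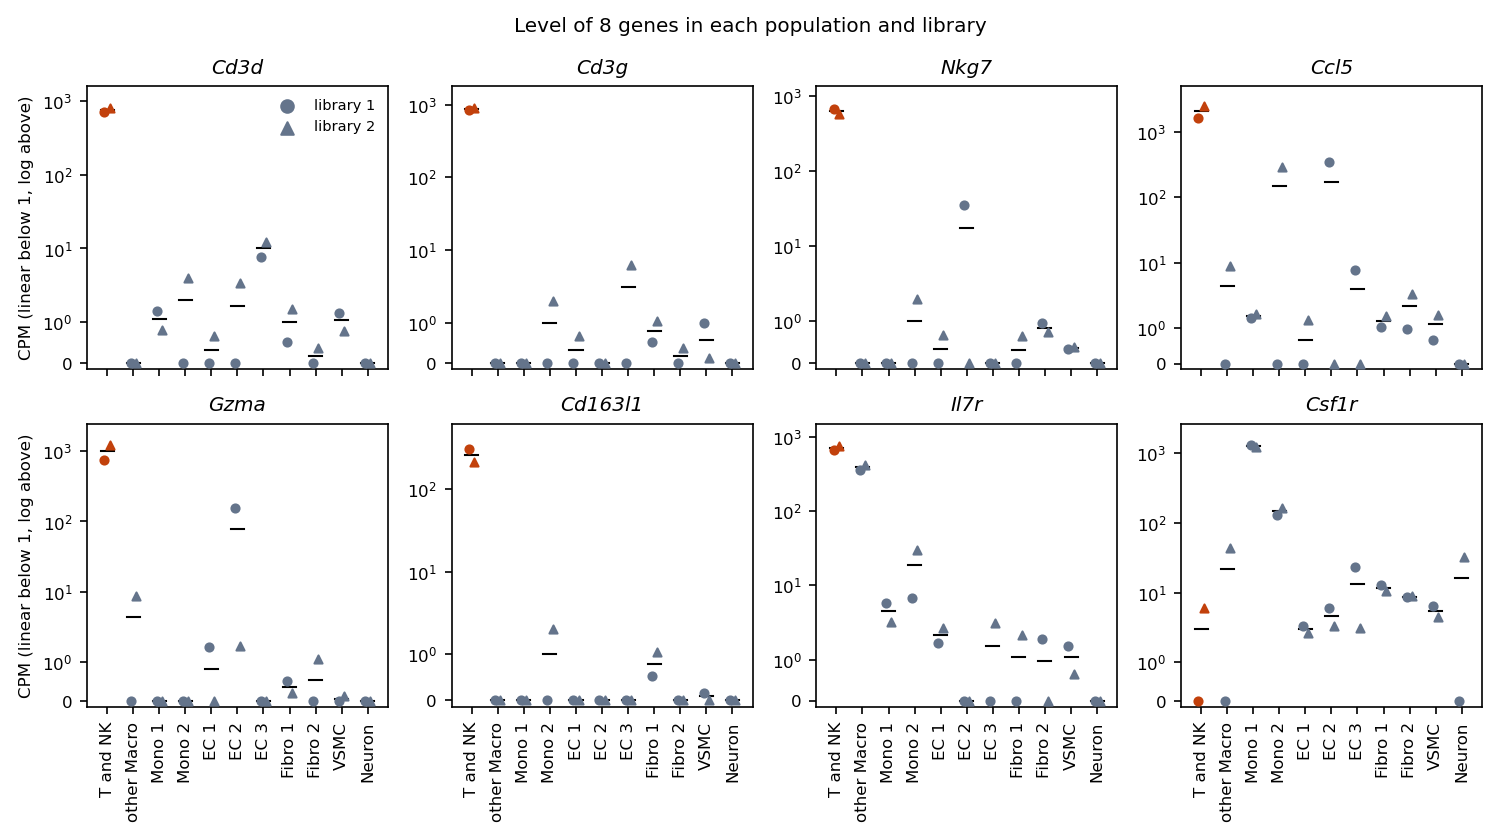
Level in CPM of 8 genes (y axis, linear below 1 and logarithmic above) in each population (x axis), with circles for library 1, triangles for library 2 and a line at the mean. Cd3d, Cd3g, Nkg7 and Cd163l1 stood highest in T and NK cells in both libraries, and Ccl5 and Gzma also appeared in EC 2 of library 1. Il7r also appeared in the other Macro cells, almost all of it in those without a UMI of the rule genes, and Csf1r stood highest in Mono 1.

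Of 2028 genes with at least 20 UMIs in T and NK cells, 32 had a level at least 4 times that of every other population in each library, and 6 of these are genes of the rule. Because these cells were set apart by their own RNA, this is a description with no test. The list included receptors of NK cells (Klra4, Klra7, Klra8, Klra9, Klrb1c, Klrc2 and Klre1), the T cell signalling genes Sh2d1a, Txk, Zap70, Lat, Cd28 and Cd247, the coreceptors Cd8a and Cd8b1, the granule genes Ctsw, Gzma and Nkg7, and the transcription factors Lef1 and Tcf7. Actn2, an actinin best known from muscle, was also among them, with 96.9 and 148 CPM in T and NK cells and 4.03 and 3.03 CPM in VSMC, its next highest population. It was found in 21 of the 89 T and NK cells, among them all 9 Cd163l1 cells. The proliferation genes Rrm2 and Nusap1 were also among them, with 35 of 36 and 20 of 20 UMIs in the 2 dividing cells. Without these 2 cells, an alternative added after the values were seen, neither gene remained and 31 genes met the limit, 30 of them shared with the 32.

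The T and NK cells were then compared with the remaining Macro cells for every gene outside the rule. UMIs were summed per library and population and fitted with edgeR's quasi-likelihood test, and each library entered as a block (n = 2 throughout). A called gene has a Benjamini-Hochberg adjusted p under 0.05, adjusted over all genes in the fit with the 9 rule genes included. Folds are log2 of T and NK over remaining Macro cells, and ± after a log2 fold gives its standard error, taken from the fold and its F statistic. Of 10406 genes, 101 were called higher in T and NK cells (0.971%) and 122 lower (1.17%), 2.14% in either direction, and 214 of the 223 had the same sign in each library. Since the RNA of these same cells decided on which side each cell fell, genes that accompany the 9 rule genes had to differ, and the calls describe the 2 sides of that division. A gene with 0 UMIs on 1 side, such as Klrd1 or Fcmr, could be called in only 1 direction. The number of calls depends on having both libraries: 114 genes were called without library 1 and 64 without library 2. Of the 62 called genes that are named by rule, DESeq2 called 26, did not call 28 and did not test 8. The remaining Macro cells mix the 49 B-gene cells with the 29 cells without a UMI of the rule genes. With the B-gene cells alone as reference, 175 genes were called higher and 115 lower, 60.3% higher against 45.3% in the comparison with all remaining cells.

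T cell signalling genes had positive folds against the mixed reference of remaining Macro cells. Of 18 tested genes of T cell signalling, 6 rose and 12 were not called (median log2 of the 18 of 2.14, and 1.92 with genes at 0 UMIs set to their bound, against 0.00 over all genes tested). Lat, the membrane adaptor that relays the receptor signal, had 417 and 374 CPM in T and NK cells, against 57.2 and 70.3 CPM in the remaining Macro cells. The sides did not overlap, and Lat rose by 2.65 ± 0.47 on the log2 scale (adjusted p = 0.000566), although it was not called without library 1. Cd28, the costimulatory receptor, had 209 and 255 CPM in T and NK cells, against 0 and 17.6 CPM in the remaining Macro cells. With 71 UMIs against 2, its ratio was 25.6 (counting interval 6.84 to 216, adjusted p = 0.00023), and it was called with either library left out and by DESeq2. Txk, a Tec-family kinase, had 70 UMIs against 1, a ratio of 50.6 (8.78 to 2025), and was not called by DESeq2. The kinase Fyn and the surface protein Thy1 were the other genes of the list that rose, by 2.29 ± 0.62 and 1.98 ± 0.32. Within the reference, Thy1 had 291 CPM in the 29 cells without a UMI of the rule genes and 8.2 CPM in the B-gene cells. T and NK cells had 515 CPM of it over both libraries. Skap1 had 416, 0 and 350 CPM in these groups, in the same order. Cd247, the zeta chain of the receptor and the single gene tested among receptor chains outside the rule, had 46 UMIs against 2, a ratio of 16.6 (4.34 to 141). Sh2d1a, the adaptor SAP, had 52.2 and 184 CPM in T and NK cells and 0 UMIs in the remaining cells, at least 9.15-fold higher against a floor of 3 UMIs over the group. DESeq2 called Cd247 and did not test Sh2d1a.

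Both CD8 genes tested were called higher. Cd8b1 had 164 and 296 CPM in T and NK cells and no UMI in the remaining Macro cells, a level at least 17.3-fold higher (adjusted p = 4.08e-05), called without library 1 but not without library 2. Cd8a had 30 UMIs against 1, a ratio of 21.7 (3.60 to 884, adjusted p = 0.0382), and was not called with either library left out. Cd4, with 7 UMIs against 1, did not pass the filter on low counts.

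Genes of NK cells stood apart with few cells behind them. Of 14 NK receptor genes tested, 8 rose and 6 were not called, against 0.971% called higher over all genes. Genes with 0 UMIs in the remaining Macro cells, Klra4 and Klra8 among them, passed the count filter without that side. They could only be called higher, so this count is a description. Klrd1, the CD94 chain that pairs with NKG2 receptors, had 201 and 255 CPM in T and NK cells and 0 UMIs in the remaining Macro cells, at least 16.9-fold higher (adjusted p = 0.000237), and was called with either library left out but not by DESeq2. Its UMIs lay in 11 NK-marker cells, 9 CD8 cells and 3 other CD3 cells. Klrk1, the activating receptor NKG2D, was at least 10.4-fold higher, and Klra4 and Klra8 at least 12.8-fold and 11.8-fold. Of the 14, only 1 was called without library 1, 2 without library 2, and 1 by DESeq2. Of 7 cytotoxic granule genes tested, 5 rose: Gzma, Gzmb, Ctsw, Serpinb9 and Serpinb6b, of which 2 were called without library 1 and 1 without library 2. Gzma had 753 and 1227 CPM in T and NK cells, against 0 and 8.78 CPM in the remaining Macro cells. With 308 UMIs against 1 its ratio was 222 (39.6 to 8815, adjusted p = 4.80e-07), called with either library left out but not by DESeq2. Serpinb9, which protects a killer cell from its own granzyme B, had 29 UMIs against 1, a ratio of 20.9 (3.47 to 855).

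Of 6 chemokines and cytokines tested, Ccl5 rose and the other 5 were not called. It had 655 UMIs in T and NK cells against 1 in the remaining Macro cells, a ratio of 473 (84.6 to 18714, adjusted p = 4.99e-06), and was called with either library left out but not by DESeq2. Among 19 receptors for chemokines and cytokines only Il18r1 was called. This subunit of the interleukin-18 receptor had 231 and 279 CPM in T and NK cells, against 0 and 8.78 CPM in the remaining Macro cells, a ratio of 56.3 (9.82 to 2253, adjusted p = 0.000123). Il7r had 705 ± 59.2 CPM in T and NK cells and 387 ± 48.7 CPM in the remaining Macro cells (SD, n = 2), a log2 difference of 0.89 ± 0.25 that was not called (adjusted p = 0.0507). That reference averages 2 unlike parts: 84 Il7r UMIs lay in the 29 cells without a UMI of the rule genes and 1 in the 49 B-gene cells.

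Among 15 lineage transcription factors, Lef1, Tcf7 and Bcl11b rose and 12 were not called. Lef1 and Tcf7, the factors through which naive T cells read Wnt signals, had ratios of 27.8 (7.44 to 234) and 17.3 (4.54 to 147). Bcl11b, which fixes T cell identity, had 186 and 208 CPM in T and NK cells, against 38.1 and 52.7 CPM in the remaining Macro cells, a log2 change of 2.13 ± 0.58 (adjusted p = 0.0429). Without library 1 only 1 of the 15 was called and without library 2 none. Gata3 was not called, with 246 and 101 CPM in T and NK cells, against 181 and 264 CPM in the remaining Macro cells, and the groups overlapped. Against the B-gene cells alone, none of which held Gata3, it was called higher. Of 12 genes of naive and circulating T cells, Lef1, Tcf7 and Dapl1 rose, while Ccr7, which B cells also use, had a log2 change of 0.43 ± 0.57 that was not called. None of 6 tissue-residency, 6 regulatory and 6 group 2 innate genes was called by edgeR or DESeq2. At an unadjusted p under 0.05 by edgeR there were 2, 1 and 3 genes in these lists, against 1063 of all 10406 genes tested. All 6 group 2 innate genes had a negative fold (median log2 of -1.31), and 2 of them were called lower without library 1, whereas with the B-gene cells alone as reference 2 were called higher.

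Cd163l1 was the single called gene of the 6 tested in the gamma delta and type 17 list. It had 313 and 213 CPM in T and NK cells and 0 UMIs in the remaining Macro cells, at least 18.8-fold higher (adjusted p = 4.88e-05), and was called with either library left out but not by DESeq2.

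**Figure D4:**
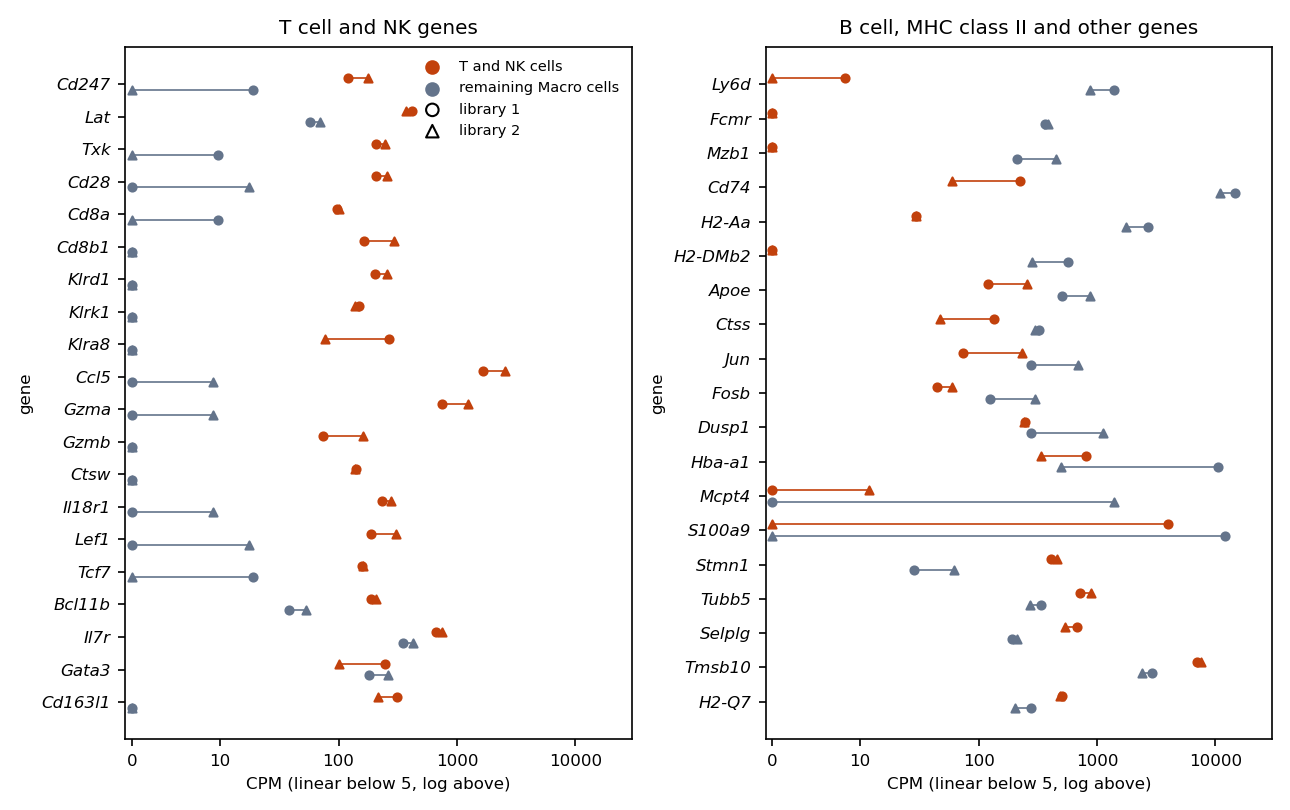
Level in CPM (x axis, linear below 5 and logarithmic above) of the named genes in T and NK cells, drawn above, and in the remaining Macro cells, drawn below, with circles for library 1 and triangles for library 2. T and NK genes sit at or near 0 CPM in the remaining cells except Lat, Bcl11b, Il7r and Gata3, while B cell and MHC class II genes show the reverse, and Hba-a1, Mcpt4 and S100a9 differ widely between libraries.

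The genes lower in T and NK cells were led by those of B cells and of MHC class II. Of 13 B cell genes tested outside the rule, 10 fell and 3 were not called. Ly6d had 7.45 and 0 CPM in T and NK cells, against 1383 and 878 CPM in the remaining Macro cells, and its 1 UMI against 245 gave an inverse ratio of 339 (60.3 to 13452, adjusted p = 6.12e-13), not called by DESeq2. Fcmr, the receptor for IgM, and Mzb1, a chaperone of antibody-making cells, had 0 UMIs in T and NK cells. Their levels were at least 37.8-fold and 33.7-fold lower than in the remaining Macro cells. Of 10 MHC class II genes, 9 fell. Cd74, the invariant chain, had 224 and 59.3 CPM in T and NK cells, against 14560 and 10840 CPM in the remaining Macro cells, and fell by 6.55 ± 0.39 on the log2 scale (adjusted p = 1.74e-14). H2-Aa had 29.8 and 29.6 CPM in T and NK cells, against 2689 and 1748 CPM. The summed level of the class II genes was 388 and 249 CPM in T and NK cells, against 38192 and 32269 CPM in the B-gene cells and 1198 and 380 CPM in the 29 cells without rule genes, of which 1 cell held 40 of the 49 UMIs in library 1. Of 9 class I genes, H2-Q7 rose by 1.08 ± 0.27 (adjusted p = 0.0223), though not with either library left out, and 8 were not called.

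Motility and cytoskeleton genes included 4 that rose among 20 tested. Tmsb10, which binds actin monomers, had 6947 and 7518 CPM in T and NK cells, against 2889 and 2381 CPM in the remaining Macro cells, and rose by 1.49 ± 0.16 (adjusted p = 4.07e-08), called with either library left out and by DESeq2. Selplg, the ligand of P-selectin with which blood cells roll on endothelium, had 678 and 540 CPM in T and NK cells, against 191 and 211 CPM in the remaining Macro cells, and rose by 1.61 ± 0.29 (adjusted p = 0.000542). Cfl1 and Tmsb4x rose by 0.77 ± 0.19 and 0.59 ± 0.15, but Cfl1 was not called without library 2 or without the library block. Tmsb4x was not called with either library left out, without the block or by DESeq2. Of 14 cell cycle genes tested, Stmn1, Tubb5 and Top2a rose. Among all cell cycle UMIs of T and NK cells, 1 cell held 64.6% in library 1 and 1 cell held 52.6% in library 2, and the part of these cells in the calls was not tested. The median cell held 2 and 2.5 cell cycle UMIs in T and NK cells, against 1 and 1 in the remaining Macro cells.

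Several genes that fell moved with a single cell or with 1 side of the reference. All 4 haemoglobin genes were called lower. Hba-a1 had 805 and 338 CPM in T and NK cells, against 10594 and 492 CPM in the remaining Macro cells. In library 1 a single remaining cell held 84.2% of the 3486 haemoglobin UMIs of that side. The median per cell was 9 in T and NK cells and 9 in the remaining cells of library 1, and 7 and 5.5 in library 2. Without library 1 none of the 4 was called. Mcpt4 and Cma1, mast cell proteases, were called lower through library 2, in which 1 remaining cell held 531 of 535 mast cell UMIs. S100a9 was found in 1 T and NK cell and 3 remaining cells, with 3958 and 0 CPM in T and NK cells, against 11976 and 0 CPM in the remaining Macro cells. Without the Macro cells holding at least 100 neutrophil or mast cell UMIs, which were 1 T and NK cell and 3 remaining cells, S100a9, Mcpt4 and Cma1 had too few UMIs to be tested, and 219 genes were called.

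Immediate early genes, which respond within minutes to stimuli and to tissue digestion, fell in 8 of 18 cases (median log2 of -1.42). Jun had 74.5 and 231 CPM in T and NK cells, against 277 and 694 CPM in the remaining Macro cells, and fell by 1.60 ± 0.38 on the log2 scale (adjusted p = 0.0139). Summed over the 18 genes the level was 3630 and 4038 CPM in T and NK cells. It was 3940 and 7025 CPM in the B-gene cells and 7920 and 15290 CPM in the cells without rule genes. With the B-gene cells alone as reference none of the 18 was called, and without library 2 none was called. Of 15 macrophage genes, Apoe and Ctss fell and 13 were not called. Apoe, which carries lipid, had 119 and 255 CPM in T and NK cells, against 505 and 870 CPM in the remaining Macro cells, and fell by 1.82 ± 0.29 (adjusted p = 7.41e-05). None of 8 smooth muscle, 8 fibroblast and 8 endothelial genes was called by edgeR or DESeq2. At an unadjusted p under 0.05 by edgeR there were 4, 2 and 0 genes, against 1063 of all 10406 genes tested. Without library 1, 2 smooth muscle genes were called lower. Of 95 ribosomal protein genes tested, 2 rose (median log2 of 0.26), against 0.971% called higher over all genes.

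Macro cells were also clustered on genes other than the 9 of the rule. All 49 B-gene cells formed 1 of 6 clusters, with no T or NK cell among them. Of the T and NK cells, 45 were in a cluster of 46 led by Dapl1, Lef1, Cd8b1 and Tcf7. It held 19 of the 21 CD8 cells and 2 of the 12 cells with NK markers. A further 25 were in a cluster of 26 with all 9 Cd163l1 cells, and 10 made up a cluster led by Gzma, Klra4 and Klra8, all of them cells with NK markers. The other 9 were with the cells that have no rule UMI. Of those 9, 8 joined 22 such cells in a cluster of 30 led by Areg, Rnf128, Calca, Arg1 and Il1rl1, and the neutrophil-gene cell joined 5 in a cluster led by S100a8 and S100a9.

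The 29 cells without a UMI of the rule genes shared several genes with these T and NK cells. Gata3 was found in 22 of 89 T and NK cells and in 21 of the 29, Il1rl1, the receptor for interleukin-33, in 9 and 21, and Il7r in 56 and 22. None of the 49 B-gene cells held Gata3 or Il1rl1, and 1 held Il7r. Areg, the growth factor amphiregulin, had 0 UMIs in T and NK cells and 84 UMIs in 4 of the 29. Tcf7 and Lef1 were each found in 2 of the 29, against 31 and 32 of the 89. No cell type name is given to these cells.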

How the data were processed

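The authors deposited a table of raw UMI counts per gene and cell for both libraries, with their own population name for each cell. Per the submitters' processing notes, Cell Ranger 2.1 was used. The build of the genome is not given in the sources used here. The cells of the table hold 1322 to 14968 UMIs each. Which library is which aorta of the labels could not be settled, so they are called libraries 1 and 2. The rule was applied to the raw counts. UMIs were then summed per library and population. The 22 sums were fitted with edgeR 4.0.16 in R 4.3.3 (filterByExpr, TMM, quasi-likelihood test, terms for population and library, residual df of 10). Benjamini-Hochberg adjustment ran over all 10415 genes in the fit. The 9 rule genes entered it and were set aside afterwards, which left 10406 genes. The spread in this fit is pooled over all populations. It is what remains between the 2 libraries once the shift common to all populations is removed. The p-values rest on it and not on the spread of the 2 compared populations alone. Tested on simulated counts of 10067 genes, this fit called 26% of 100 genes changed 2-fold and 82% of 100 changed 4-fold. It also called 4 of 9867 unchanged genes. Genes with few UMIs were not picked to be changed, so the shares of 26% and 82% leave such genes out. The simulated counts took their spread from the estimates of this same fit. The shares and the 4 calls therefore cannot show whether that spread is right. Among the genes picked, the shares were not split by UMI count. They do not show how often a change is called in sparse genes, or where 1 cell holds most of the UMIs. For such genes, the lack of a call cannot be read as the lack of a difference. CPM are UMIs scaled to 1000000 of a population's summed UMIs. Ratios for genes with 1 to 3 UMIs on a side carry exact 95% intervals, and a side with 0 UMIs was set to a floor of 3 UMIs over the group; both cover counting error only. Cells were thinned to 1000 UMIs for shares, and none was shallower. Doublets were marked with Scrublet in scanpy 1.11.5 and kept. Macro cells were clustered with leidenalg 0.10.2 (1000 variable genes, 10 components, 10 neighbours, resolution 0.8) without the rule genes. Promoters are from RefSeq, GRCm38.p6.

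The cells and gene lists were chosen with earlier results of these data known. Named genes are the 10 called with the largest fold in each direction (at least 30 UMIs, same sign in each library), up to 4 called genes of each of 30 lists, the 15 genes with the largest ratio over other populations, and a further list of lineage genes. The groups of T and NK cells by lineage genes, and Blk, Cxcr6, Tmem176a, Rora, Il23r, Fyn, Thy1, Skap1, Serpinb6b, Fcer1g, Tyrobp, Rrm2, Nusap1, Il1rl1 and Areg, were chosen after their values were seen. Alternatives tried were DESeq2 1.42.0, RLE size factors, no filter, no library block, a fit of only the 2 populations, B-gene cells alone as reference, a margin of 2 UMIs, doublets out, thinned cells and each library left out. For the share, the rule was also tried without Nkg7 and without Ms4a4b. Some genes of the lists are counted with their list but not reported here by name.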

Additional observations from a re-analysis of the deposited data

How the results depend on the processing

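The mean share of T and NK cells was 1.63% to 1.71% of all cells and 51.7% to 53.9% of Macro cells under the alternatives that kept both libraries. These were a margin of 2 UMIs, the rule without Nkg7 or without Ms4a4b, doublets out and thinned cells. Leaving out a library cannot judge the share against the SD, since with 2 libraries that shift is always smaller than their SD. Against 223 called genes (101 higher, 122 lower), leaving out a library gave 64 to 114 calls, 24 to 46 higher and 40 to 68 lower; this form of leaving out, which keeps the other populations of both libraries and assumes the lone library varies as they do, was chosen after seeing the data. Cells thinned to 1000 UMIs gave 88 calls, 31 higher and 57 lower, among 4041 genes tested. Genes higher numbered 65 by DESeq2, 67 in a fit of only the 2 populations (1752 genes tested), 175 with the B-gene cells alone as reference and 167 with a margin of at least 2 UMIs on both sides, which leaves out the 29 cells at 0; these last references moved the median of all genes by 0.19 and 0.20 on the log2 scale. Without the library as replicate block 165 genes were called, 163 of them shared. RLE size factors gave 217, no filter on low counts 260, doublets left out 226, and neutrophil-rich and mast-rich cells left out (an alternative added after seeing the data) 219. Directions reversed against the B-gene cells alone for S100a9 (8.05), Fosb (0.49) and Gata3 (10.82), and with the margin for Fosb (0.055) and Gata3 (10.78); Gata3 has 0 UMIs in that reference, so its fitted folds depend on the prior count. Genes highest in T and NK cells numbered 50 at 2-fold, 16 with at least 50 UMIs and 31 without the dividing cells, against 32. Of 62 named genes called, 16 were called in each single-library fit and 17 in neither. The cause of these changes was not tested. With 302825 UMIs over 89 cells, genes such as Cd4, Foxp3 and Prf1 were at the limit of detection.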
